A study of Mus with 438 samples.

Results

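The cells described here are the 103 control cones of the collection labelled 2 months (2m), 53 picked from the superior retina and 50 from the inferior retina, out of 429 single photoreceptors measured in the series. They were taken by the age, genotype and zone that each library carries in its name, and the comparison is superior against inferior over all 10390 genes of the table. Both zones came from C57BL/6 mice of genotype Trb2Cre-het:Ai6, in which Cre made from the Thrb locus, the gene of the beta thyroid hormone receptor, switches on a green fluorescent reporter. All controls are therefore heterozygous for the driver allele. Pieces of superior or inferior retina were dissociated with papain, and fluorescent cells were picked one at a time by suction pipette. The labels name no animal, so each zone counts as 1 sample, no p-value or error is computed from cells, and a difference at 2m alone is a description. Control cones of the same genotype at postnatal day 21 (P21, 24 superior and 24 inferior cells) and day 60 (P60, 26 and 21 cells) serve as further collections. Cones of 2-month Trb2Cre-KO:Ai6 mice (50 and 48 cells), called knockout here, and 29 rods of 2-month tgNrl:gfp mice were measured the same way.

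Cones are the photoreceptors of daylight vision. In mice most of them make a medium-wave (M) opsin, Opn1mw, a short-wave (S) opsin, Opn1sw, or both in 1 cell, with M opsin prevailing in the superior and S opsin in the inferior retina. The superior and inferior eye are set apart early by dorsal factors, such as the receptor Nr2f2 and the retinaldehyde dehydrogenase Aldh1a1, and by the ventral homeodomain factor Vax2. Thyroid hormone acting through the beta receptor is known to be needed for M opsin.

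Superior cells had a median of 1.26e+07 reads (7.37e+06 to 3.26e+07) and inferior cells a median of 1.36e+07 (8.44e+06 to 2.28e+07), so depth was close in the 2 zones. Values are CPM, read counts made comparable by the depth of each whole library. A gene was taken as detected in a cell above 1 CPM, which is at least 7.37 reads in each of these libraries. The median number of genes detected was 3787 in superior and 3264 in inferior cells, while genes above 0 numbered 5824 and 5782.5. No pair of the 103 cells was alike enough to be 1 cell sequenced again (highest Pearson r 0.467 across genes).

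Some libraries stood apart by their numbers, and the labels do not say what a run of numbers stands for. Superior libraries 36 to 41 had 1358 to 1942 genes detected and inferior libraries 38 to 50 had 1066 to 2276, while every other library had at least 2595 (superior) or 2424 (inferior). Without these 6 superior and 13 inferior libraries, all under 2300 genes, the medians were 3841 and 3517 genes. Their depth was not low, with a median of 2.00e+07 reads in the 6 superior and 1.65e+07 in the 13 inferior libraries. Xist, the RNA that coats the inactive X chromosome of females, was above 1 CPM in superior libraries 1 to 15, all 15 of them, and in 18 of the inferior libraries 1 to 26, and in 0 of the later libraries of either zone. The labels give no sex, so sex and library number cannot be told apart here. Results are given below also without the 19 libraries of few genes and within the early and the later libraries by number, splits added after the data were seen.

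The cone label held in both zones. Cone transducin Gnat2, the G protein subunit that relays the light signal, had a lowest, median and highest value of 4781, 8574 and 13975 CPM in superior cells and of 4868, 8433 and 17786 CPM in inferior cells. Rods had a mean of 0.265 CPM of Gnat2. Every cell of both zones was also above 1 CPM for cone arrestin Arr3, for the phosphodiesterase genes Pde6c and Pde6h and for the transducin subunits Gnb3 and Gngt2.

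The opsins gave the zones their character, and each zone was itself a wide range. Opn1sw (gene ID 12057, chromosome 6, 29376671 to 29380513 in GRCm38.p6) had a lowest, median and highest value of 44.3, 9991 and 65875 CPM in superior cones and of 7466, 54654 and 108624 CPM in inferior cones. Opn1mw (gene ID 14539, chromosome X, 74127466 to 74150756) had 3269, 8277 and 22522 CPM in superior cones and 0.916, 1992 and 15834 CPM in inferior cones. The ranges overlapped for both opsins, with 13 inferior cells above the highest superior cell in Opn1sw and 6 superior cells above the highest inferior cell in Opn1mw. That superior maximum of Opn1sw was 1 library, superior 16, and the next highest superior cell had 46751 CPM. As log2 of the ratio of (mean CPM + 1), superior over inferior, the zones differed by -2.09 in Opn1sw and by 1.49 in Opn1mw.

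The form of the spread differed between the genes. In the superior zone M opsin stood in a narrow band, within which S opsin ran from 44.3 CPM upward. In the inferior zone S opsin stood in the narrow band and M opsin split: 39 cells held 452 CPM or more and the other 11 held 20.3 CPM or less. Those 11 were unevenly spread over the library numbers, with 1 among inferior libraries 1 to 26 and 10 among libraries 27 to 50. Of them 6 were libraries of few genes and 5 of the 37 other inferior libraries were low as well. The part of the libraries in this split was not tested. M opsin made up 6.54% to 99.5% of opsin RNA in superior cones (median 46.9%, quartiles 31.9% and 85.9%). In inferior cones it made up 0.00139% to 53.2% (median 3.80%, quartiles 0.898% and 8.97%). Of the superior cones 25 of 53 lay above every inferior cone on this scale, and of the inferior cones 34 of 50 lay below every superior cone. Opsin RNA in all had a median CPM of 19829 (superior) and 57271 (inferior), so the share of the library left for other genes was larger in superior cones.

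The zone ratio of S opsin was near the same in each set of libraries, and that of M opsin was not. The log2 ratio of Opn1sw was -1.92 without the libraries of few genes, -2.12 in the early libraries (superior 1 to 15, inferior 1 to 26) and -2.32 in the later ones (-2.16 there without those of few genes). That of Opn1mw was 1.03 without the libraries of few genes, 0.74 in the early libraries and 2.85 in the later ones (2.26 without those of few genes). The median M share of inferior cones was 8.34% in the early and 0.917% in the later libraries, while that of superior cones was 46% and 47.5%.

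**Figure D1:**
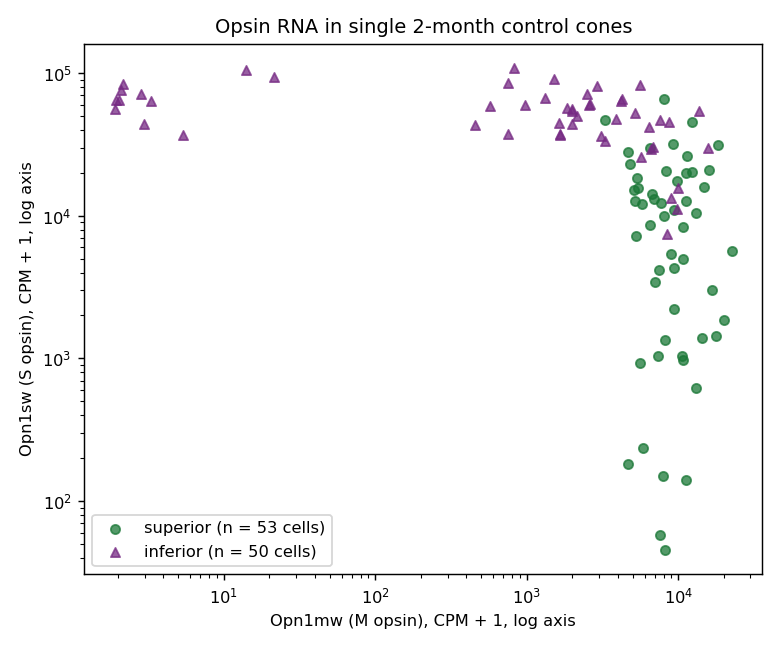
Opn1sw against Opn1mw in CPM + 1, both axes logarithmic, with 1 point per 2m control cone (circles superior, triangles inferior). Superior cones form a column at high M opsin that spans S opsin from 44.3 to 65875 CPM, and inferior cones lie at high S opsin, with 11 of 50 at 20.3 CPM of M opsin or less.

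Beside the opsins, a few genes were detected in many more cells of 1 zone than of the other. Syndig1l (gene ID 627191, chromosome 12, 84677277 to 84698947), of a family of synapse-linked membrane proteins, was above 1 CPM in 2 of 53 superior cones (3.77%, exact Clopper-Pearson 95% interval 0.46 to 13) and in 37 of 50 inferior cones (74.0%, 59.7 to 85.4). Its mean CPM was 3.76 (superior) and 137 (inferior), a log2 ratio of -4.86. The pair of superior cones with Syndig1l were library 16, with 126 CPM and an M opsin share of 10.9%, and library 45, with 72.1 CPM and 99.3%. Intervals on shares cover counting error only, since reads had no molecular identifiers and cells may share an animal.

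In the other direction stood Samd7, Smug1 and Stom. Samd7 (gene ID 75953, chromosome 3, 30746293 to 30767174), a transcriptional repressor of photoreceptors, was above 1 CPM in 29 superior cones (54.7%, 40.4 to 68.4) and 3 inferior cones (6.00%, 1.25 to 16.5), with means of 169 and 2.87 CPM and a log2 ratio of 5.46. Smug1 (gene ID 71726, chromosome 15, 103153290 to 103168939), a DNA repair enzyme that removes uracil, was above 1 CPM in 45 superior cones (84.9%) and 9 inferior cones (18%), with means of 563 and 71.2 CPM and a log2 ratio of 2.97. In the cells that had it, Smug1 stood at a median CPM of 607 in superior against 343 in inferior cones, so the zones differed more in the share of cells than in the level per positive cell. Stom, the membrane protein stomatin, was in 32 superior and 10 inferior cones, with medians of 267 and 200 CPM among the cells that had it. Without the libraries of few genes the log2 ratios of Syndig1l, Samd7, Smug1 and Stom were -4.62, 5.18, 3.01 and 1.88. They were -7.01, 4.88, 2.83 and 2.22 in the early libraries, and -4.56, 7.29, 3.41 and 2.86 in the later ones.

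Kpna2 and Kcne2 were present in most cells of both zones and differed in level. Kpna2 (gene ID 16647, chromosome 11, 106988629 to 106999525), an importin that carries proteins into the nucleus, had a lowest, median and highest value of 18.2, 1059 and 3013 CPM in superior cones and of 0.0679, 290 and 2444 CPM in inferior cones. It was above 1 CPM in all 53 superior cones and in 35 of 50 inferior cones (70.0%). Inferior cells without it lay in libraries of both kinds. Kpna2 was above 1 CPM in 5 of the 13 inferior libraries of few genes and in 30 of the other 37, with medians of 0.648 and 487 CPM. The 6 superior libraries of few genes had a median of 2207 CPM. Its log2 ratio was 1.54 over all cells, 1.04 without those libraries, 0.65 in the early and 3.0 in the later libraries.

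Kcne2 (gene ID 246133, chromosome 16, 92292389 to 92298133), a potassium channel subunit, had 0.37, 496 and 2644 CPM in superior cones and 0.796, 1360 and 4022 CPM in inferior cones. BE949265, a non-coding RNA gene on chromosome 17, had a mean CPM of 47.7 in superior against 215 in inferior cells and was in 22 of 53 and 35 of 50 cells. Their log2 ratios were -1.42 and -2.15, and the ranges of the zones overlapped for both. Superior library 16 held the highest superior value of both genes (2644 and 599 CPM), as it did for Opn1sw and Syndig1l. In the early libraries these ratios were -1.98 and -2.18, and in the later ones -1.13 and -2.10.

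**Figure D2:**
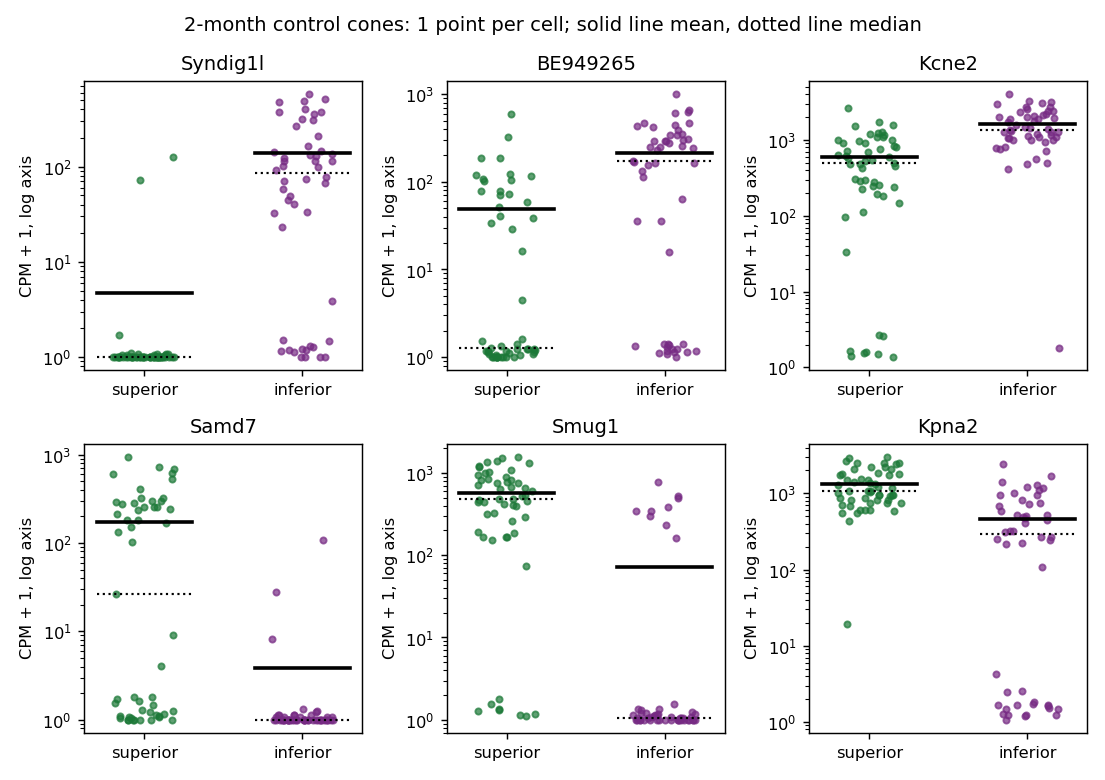
CPM + 1 on a logarithmic axis for 6 genes, with 1 point per 2m control cone, superior left (53 cells) and inferior right (50 cells), a solid line at the mean and a dotted line at the median. Syndig1l and BE949265 are present in more inferior cells (37 and 35 of 50) than superior cells (2 and 22 of 53), Samd7 and Smug1 in more superior cells, and Kcne2 and Kpna2 differ in level among cells that mostly have them.

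Adult cones of each zone carried RNA of some genes listed here as dorsal or ventral. Of the 13 dorsal genes listed, 5 were measured (Bambi, Efnb1, Aldh1a1, Nr2f2 and Xrcc4), and all 5 had the higher mean in superior cones, with a median log2 ratio of 3.42 against 0.10 over all genes. At least 1 of the 5 was above 1 CPM in 32 superior cones (60.4%, 46 to 73.5) and 15 inferior cones (30%, 17.9 to 44.6). Nr2f2 was above 1 CPM in 15 superior cones (28.3%, 16.8 to 42.3) and 0 inferior cones. Efnb1, an ephrin ligand, was in 6 superior cones and was at 0 in every inferior cone. Aldh1a1 was in 5 superior cones and 1 inferior cone. The rest of the 15 inferior cones counted for this list therefore held Bambi or Xrcc4. The lowest log2 ratio of the 5 genes was 0.88. At P60 and P21 the list median was 0.62 and 0.03. Of the 5, Nr2f2 alone met the size rule that is defined further on.

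Of the 12 ventral genes listed, 4 were measured (Vax2, Vax2os, Ephb2 and En2), and all 4 had the higher mean in inferior cones, with a median log2 ratio of -2.92. At least 1 of the 4 was in 6 superior cones (11.3%, 4.27 to 23) and 18 inferior cones (36%, 22.9 to 50.8). At P60 and P21 the list median was -4.13 and -5.16. None of the 4 met the size rule. Vax2 was at 0 in every superior cone and above 1 CPM in 8 inferior cones (16%, 7.17 to 29.1), at a mean of 10.3 CPM. The homeodomain gene En2 was in 0 superior and 11 inferior cones (22%), and Vax2os, a transcript beside Vax2, in 1 superior and 7 inferior cones. Ephb2, an ephrin receptor, went the other way by cells, in 5 superior and 2 inferior cones. By the rule that a count of 0 allows 3, the share of such cells is up to 5.66% of superior or 6.00% of inferior cells, and the exact 95% upper limits are 6.72% and 7.11%. Rods, which came from no stated zone, had Vax2 in 5 of 29 cells and Nr2f2 in 0 of 29.

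**Figure D3:**
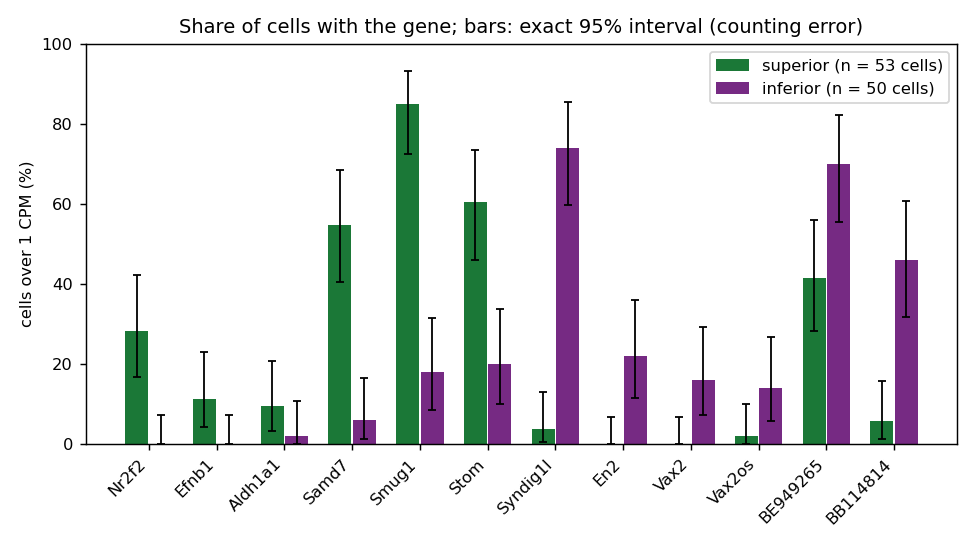
Percent of 2m control cones above 1 CPM for 12 genes, superior bars left of inferior bars, with exact 95% intervals for counting error. Nr2f2 and Efnb1 are in 0 of 50 inferior cones, En2 and Vax2 are in 0 of 53 superior cones, and Syndig1l is in 2 superior and 37 inferior cones.

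Across the table, genes were picked out by size alone. A gene met the size rule with a ratio of at least 2-fold, a mean of at least 10 CPM in the higher zone and detection in at least 25% of that zone's cells. By this rule 618 of 10390 genes (5.95%) were higher in superior cones and 213 (2.05%) in inferior cones. Much of this rested on single cells: without the 1 cell highest for the gene, 379 of the 618 and 87 of the 213 were still at 2-fold. It also rested on the libraries: without those of few genes the rule gave 658 superior and 286 inferior genes, of which 367 and 130 were among the 618 and 213. In the early libraries it gave 955 and 760 genes, and in the later ones 1356 and 393. Superior genes were 74.4% of those that met the rule over all cells. The share was 69.7% without the libraries of few genes, 55.7% in the early and 77.5% in the later libraries. The number of genes detected per cell was higher in the superior zone, and its part in this tilt was not tested. With log values averaged over cells, 1590 genes were higher in superior and 66 in inferior cones (96.0% superior, against 74.4% by the mean CPM).

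The size rule was next set beside the other collections, whose cells it did not use. Of the 618 superior genes, 131 (21.2%) were at least 2-fold higher in superior cones at P60 as well, where 19.7% of all genes were. Of the 213 inferior genes 45 (21.1%) were lower in superior cones by that much at P60, against 13% of all genes. At P21 the counts were 137 (22.2%, against 21.4%) and 56 (26.3%, against 16.2%). For the superior genes these shares are near those of all genes.

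Genes found in most cells of a zone stood further above the background. With detection raised to at least 50% of cells, a limit chosen after the data were seen, 145 superior and 39 inferior genes were left. Of these, 32 superior genes (22.1%) and 16 inferior genes (41%) were 2-fold in the same direction at P60, against 7.01% and 3.45% of the 2783 genes detected in at least 50% of the cells of a zone. At P21 it was 33 and 16 genes, against 8.66% and 5.25%. Both collections together held 14 superior and 12 inferior genes, and no background share was taken for the 2 together. Without the libraries of few genes the rule left 170 superior and 67 inferior genes, of which 35 (20.6%) and 16 (23.9%) were 2-fold at P60, against 7.79% and 3.94% of the 3246 genes then in the background.

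The zones were tested over the 3 collections from P21 on. Limma was run on log2(mean CPM + 1) of the 6 zone means with the collection as a block, and Benjamini-Hochberg adjustment over 9769 genes with a mean CPM of 5 or more. It called 3 genes higher in superior cones (0.0307% of those tested) and 1 higher in inferior cones (0.0102%), with 742 genes at an unadjusted p under 0.05. M opsin (Opn1mw) rose by 1.90 in log2 (SE 0.15, limma adjusted p = 0.0368), Samd7 by 4.83 (SE 0.38, adjusted p = 0.0368) and Kpna2 by 1.67 (SE 0.15, adjusted p = 0.0462), each higher in superior cones in 3 of 3 collections. S opsin (Opn1sw) fell by 2.92 (SE 0.25, limma adjusted p = 0.0448), lower in 3 of 3. With the 2m means taken without the 19 libraries of few genes, limma called Samd7 alone (4.74, adjusted p = 0.0372), and Opn1sw (-2.86), Opn1mw (1.75) and Kpna2 (1.51) had adjusted p = 0.0632, 0.131 and 0.162. Leaving out P21 or P60 left 0 genes called, and the fit over all 5 control collections and edgeR on summed reads called 0 as well (710 and 462 at p under 0.05). Leaving out 2m gave 9 genes in each direction, these 4 among them.

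Just outside the threshold stood Smug1, BE949265 and Syndig1l. They differed by 4.35, -2.68 and -6.02 (limma adjusted p = 0.0641 for each), in the same direction in all 3 collections. By collection, in the order P21, P60 and 2m, the log2 ratio of Syndig1l was -5.66, -7.55 and -4.86. That of Smug1 was 4.59, 5.5 and 2.97. Sag, the arrestin known from rods and also made by cones, had a small difference. Its ratio was even over the collections, at -0.49, -0.51 and -0.47 (mean -0.49 ± 0.02, SD, n = 3 collections; limma adjusted p = 0.0896). Within 2m it was less even, at -0.80 in the early and -0.37 in the later libraries. In 2m cells Sag had a median CPM of 12981 in superior against 18671 in inferior cones.

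A fit on P21 and P60 alone gave genes whose 2m values are independent of the choice. It had 1 residual degree of freedom and leaned on the spread shared across genes, and limma called 9 genes in each direction (0.0937% each). In the 2m cones all 18 had the same direction, where 55.9% of all genes were higher in superior and 44% in inferior cones. Of the 9 superior genes 6 were at least 2-fold in 2m cones (against 17.6% of all genes), and of the 9 inferior genes 5 were (against 9.47%). The superior genes were Opn1mw, Smug1, Samd7, A930001M01Rik, Kpna2, the nicotinic receptor subunit Chrnb4, the immediate early factor Egr1, the matrix gene Impg1 and the disc cadherin Cdhr1. The inferior genes were Opn1sw, its neighbour Ccdc136, Syndig1l, BE949265, Kcne2, the cyclase activator Guca1b and the rod-rich genes Gnat1, Sag and Reep6. Guca1b was at 0.22, higher in superior cones, with log values averaged over cells. Egr1 was nearly level in 2m cones, with a mean CPM of 39.5 in superior against 35.9 in inferior cells.

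**Figure D4:**
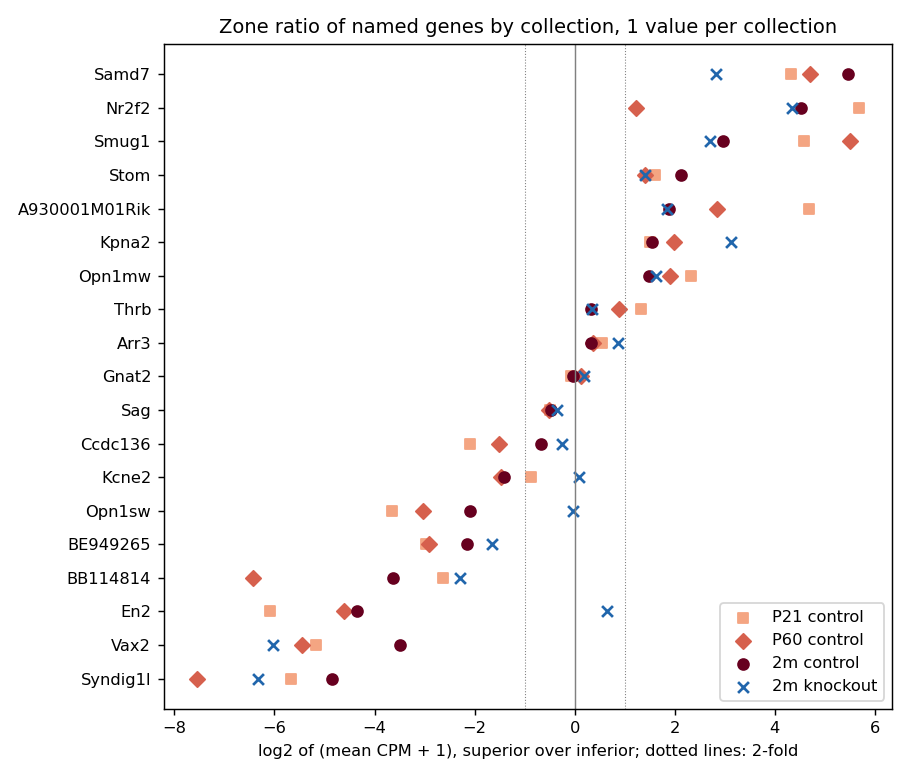
Log2 of the ratio of (mean CPM + 1), superior over inferior, for 19 named genes, with 1 point per collection (squares P21, diamonds P60, filled circles 2m control, crosses 2m knockout) and dotted lines at 2-fold. Opn1sw, Kcne2 and En2 lie on the inferior side in all 3 control collections and at -0.04, 0.09 and 0.64 in the knockout, while Syndig1l, Vax2, Samd7 and Kpna2 keep their side in all 4.

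The 12 genes with the largest ratios in superior 2m cones, among those also 2-fold at P60, were led by Samd7 and Nr2f2. Among the rest, Zfp574, a zinc finger gene, had means of 47.4 CPM (superior) and 2.0 CPM (inferior), Ahr, the aryl hydrocarbon receptor, 17.7 and 0.208 CPM, Camta2, a calmodulin-binding activator, 76.3 and 4.32 CPM, and Lhx4, a LIM homeodomain factor, 18.3 and 0.861 CPM. Lhx4 was in 18 superior and 3 inferior cones and was higher in superior cones at P21, P60 and 2m, with log2 ratios of 4.67, 3.0 and 3.38. The others were the nuclear import receptor Tnpo2, the synaptic protein gene Prrt2, the Rab exchange factor Dennd1a, the ubiquitin-linked genes Usp54 and Ankib1, and Marcks, a membrane-bound kinase substrate. Their log2 ratios in 2m cones were 3.03 to 3.41. For Usp54 and Ankib1 the highest cell held 45% and 42.2% of the superior sum, against 16.7% to 29.5% for the rest. Superior cells positive for Usp54 and Ankib1 had medians of 2.69 and 1.95 CPM. In the early libraries Usp54 was at 0.10 and the rest at 2.74 to 4.83. In the later ones without those of few genes Dennd1a was at 1.15, Marcks at 1.61 and the rest at 2.86 to 4.41. Prrt2 and Usp54 had the opposite direction at P21 (-2.22 and -3.86), and Zfp574 was level there (-0.08).

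Among the 12 inferior genes chosen in the same way, Syndig1l stood first, followed by BB114814 and Socs3. BB114814, an uncharacterised transcript, was in 3 superior and 23 inferior cones, with means of 6.41 and 91.0 CPM. Socs3, a suppressor of cytokine signalling, had means of 9.01 and 65.3 CPM and was lower in superior cones at P21, P60 and 2m (-6.91, -2.47 and -2.73). Cxx1c, an X-linked gene of retrotransposon origin, was in most cells of both zones (42 superior and 44 inferior) at medians of 4.39 and 63.4 CPM. The bipolar-cell calcium sensor Cabp5, Opn1sw, BE949265, the ubiquitin ligase gene Rnf130, Chchd5, Phactr2, the SUMO protease gene Senp7 and the Ras-like gene Diras2 completed them. Rnf130 and Phactr2 were higher in superior cones at P21 (4.78 and 1.02), and the other 10 genes were lower there.

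Genes with the largest 2m ratios that did not hold at P60 were Ctps2, a CTP synthase, Pde6a, a rod phosphodiesterase subunit, Cyb561a3, of the cytochrome b561 family, and the adaptor Crkl on the superior side. Ctps2 had means of 70.5 CPM (superior) and 0.81 CPM (inferior) at 2m, a log2 ratio of 5.30, and the ratio was -1.90 at P60 and -0.60 at P21. On the inferior side they were the snoRNA host gene Snhg17, Zfp991, the glycosylation enzyme gene Stt3a and Dcaf17, with 2m ratios of -2.99 to -2.41 and P60 ratios of -0.95 to 0.21. At P21 only Snhg17 of the 8 was 2-fold in the 2m direction (-1.57).

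Of 22 cone phototransduction genes measured, Opn1mw met the size rule as higher in superior and Opn1sw as higher in inferior cones, and the other 20 did not meet it, where 5.95% and 2.05% of all genes met it in these directions. The list median was a log2 ratio of -0.16 against 0.10 over all genes. Gnb3 had means of 5850 CPM (superior) and 6848 CPM (inferior), with ratios of -0.24, -0.30 and -0.23 at P21, P60 and 2m. Arr3, on the X chromosome, had 7466 and 5992 CPM, with ratios of 0.54, 0.37 and 0.32 (limma adjusted p = 0.455). Gnat2 was level, at -0.04. Guca1b, with 103 CPM (superior) and 148 CPM (inferior), had ratios of -1.54, -1.79 and -0.52.

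Of 15 photoreceptor transcription factor genes measured, Nr2f2 and the SUMO ligase Pias3 met the rule as higher in superior cones and 0 as higher in inferior cones, against 5.95% and 2.05% of all genes (list median 0.16). Pias3 had 51.8 CPM (superior) and 24.3 CPM (inferior) at 2m but was level at P60 (-0.00) and at -0.66 at P21, and in the later 2m libraries without those of few genes it was -0.49. The homeodomain factor Crx had means of 1126 and 911 CPM, and the retinoid receptor Rxrg 169 and 205 CPM. Of 13 genes of the thyroid hormone pathway 0 met the rule in either direction, with a list median of 0.33. Thrb had a lowest, median and highest value of 0, 81.5 and 1340 CPM in superior cones and of 0, 60.0 and 1178 CPM in inferior cones. It was above 1 CPM in 46 superior and 33 inferior cones, and its log2 ratio was 1.33 at P21, 0.89 at P60 and 0.33 at 2m. At 2m it was 0.02 in the early and 2.00 in the later libraries.

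The remaining lists are set beside the same background. Of 22 synaptic terminal genes, Dlg4, a scaffold protein of synapses, met the rule as higher in superior and Syndig1l as higher in inferior cones (median 0.03). Of 22 outer segment and cilium genes only Bbs2, part of the ciliary BBSome, met it, as higher in inferior cones (median 0.18). Of 19 glycolysis genes, 24 genes of mitochondrial respiration, 12 stress genes and 12 genes of retinoic acid and BMP signalling 0 met it in either direction. The medians of the first 3 were -0.07, -0.04 and -0.02. That of retinoic acid and BMP signalling was 0.65, with 9 of 12 genes higher in superior cones, and 0.26 at P60 and 0.51 at P21. Cdhr1, of the outer segment list, had 2082 CPM (superior) and 1285 CPM (inferior) and ratios of 0.69, 1.14 and 0.70 in the 3 collections (limma adjusted p = 0.281).

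**Figure D5:**
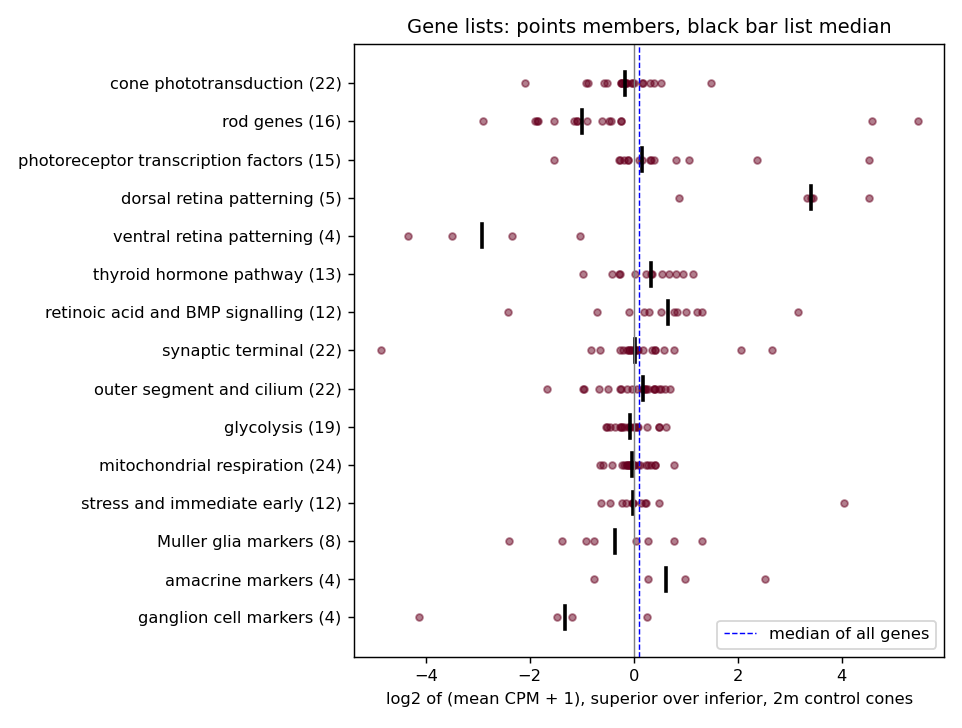
Log2 of the ratio of (mean CPM + 1), superior over inferior 2m control cones, for the measured members of 15 gene lists (points, number measured in brackets), with a black bar at each list median and a dashed line at the median of all genes (0.10). Dorsal genes (median 3.42) and ventral genes (-2.92) lie apart on either side, while glycolysis (-0.07) and mitochondrial respiration (-0.04) have medians near 0.

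RNA of rods moved with the zone. Of 16 rod-rich genes, Samd7 and Pde6a met the size rule as higher in superior cones and 4 genes, among them Gnat1, Gnb1 and Pde6b, as higher in inferior cones, and the list median was -0.99. At P60 that median was -1.99 and at P21 -0.94. Rod transducin Gnat1 had a lowest, median and highest value of 0.206, 4.29 and 1808 CPM in superior cells and of 0.536, 2.95 and 4872 CPM in inferior cells. The medians were thus low in both zones, and the means (169 and 375 CPM) were set by few cells, 16 superior and 18 inferior ones above 100 CPM. Rods had a mean of 45688 CPM of Gnat1. The summed level of the list ran from 7338 to 32257 CPM in superior and from 13447 to 34448 CPM in inferior cones, most of it Sag, against a mean of 148371 CPM in rods. The part of rod RNA in the lower superior values of Gnat1, Gnb1, Pde6b, Guca1b and Sag was not tested. The zone genes Opn1sw and Syndig1l were low in rods, at means of 18.4 and 1.24 CPM, and Kcne2, BE949265 and Cabp5 were at most 0.0378 CPM.

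Few markers of other retinal cells were measured, and 2.05% of all genes met the size rule as higher in inferior cones. Of 8 Müller glia markers Glul met the rule as higher in inferior cones (means 30.6 and 81.7 CPM, list median -0.36). The list summed to 2.07 to 4419 CPM (superior) and 452 to 6772 CPM (inferior). Of 2 bipolar markers Cabp5 met it as higher in inferior cones, with 31.9 CPM (superior) and 193 CPM (inferior), in 8 and 20 cells. Of 4 ganglion cell markers Nefl met it as higher in inferior cones, with 10.5 and 30.7 CPM, and the list summed to 0 to 485 CPM (superior) and 0 to 1148 CPM (inferior). Of 4 amacrine, 2 microglia, 1 horizontal and 1 endothelial marker 0 met it, and the lists of pigment epithelium and astrocytes had no measured gene. Whether RNA of such cells has a part in the zone differences of Cabp5, Glul and Nefl was not tested.

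The cells with Xist are all in early libraries, so a split by Xist largely repeats the one by library number. Among the 15 superior and 18 inferior cells with Xist the log2 ratio of Opn1sw was -2.06 and that of Opn1mw 0.85. Among the 38 superior and 32 inferior cells without it they were -2.17 and 1.94. Kpna2 was at 0.51 with Xist and 2.38 without, and Thrb at -0.22 and 1.27. Whether sex, library number or the libraries of few genes have a part in these ratios was not tested.

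Within the inferior zone, Kpna2 was higher in cones with a larger M share of opsin RNA, with a Spearman correlation of 0.62 across 50 cells. It was 0.54 without the libraries of few genes, 0.51 in the 26 early libraries and 0.18 in the 24 later ones. Kpna2 also had a correlation of 0.37 with the number of genes detected. In superior cones its correlation with the M share was 0.26 (53 cells). For Syndig1l, in 37 of 50 inferior cones, the correlation with the M share was -0.00, and -0.24 without the libraries of few genes. These are descriptions over cells, which also differ in depth, and depth itself had a correlation of -0.02 (superior) and -0.33 (inferior) with the M share. The 1 inferior cone with over 50% M opsin had Syndig1l, as did 36 of the 49 with less.

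Ccdc136 was lower in superior cones with a larger M share of opsin RNA. It lies beside Opn1sw on chromosome 6 (29396574 to 29426995, 16.1 kb away), and its Spearman correlation with the M share was -0.62 across superior cones and -0.13 across inferior cones, and -0.64 and -0.36 without the libraries of few genes. It had medians of 840 CPM (superior) and 1516 CPM (inferior), and log2 ratios of -2.09, -1.51 and -0.67 at P21, P60 and 2m. The sources used here do not say whether counting used strand, so reads of neighbours that run into each other could not be told apart.

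The series also lists regions bound by the tagged receptor in embryonic retina (ChAP-seq) and regions of open chromatin that the authors named induced or suppressed in cones. Within 50 kb of Opn1sw lay 10 suppressed, 1 induced and 3 bound regions, and within 50 kb of Opn1mw 7 induced, 0 suppressed and 0 bound regions. Smug1 had 6 induced regions and Stom and Syndig1l 3 each, with 0 suppressed. Bound regions were near 41% of the superior and 41.9% of the inferior size-rule genes, against 39% of all 10149 placed genes. Induced regions were near 37.4% and 35.2% (all genes 35.5%). Suppressed regions were near 13% and 19.5%, against 13.2% of all genes. Of the 128 superior and 44 inferior placed genes that were also 2-fold at P60, bound regions were near 45.3% and 45.5%, induced regions near 41.4% and 45.5%, and suppressed regions near 18% and 36.4%.

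In the knockout, part of the zone pattern was there and part was not. Knockout cones had a mean Thrb level of 43.2 CPM (superior) and 33.9 CPM (inferior), against 213 and 170 CPM in 2m controls, counted over the whole gene, so the deleted stretch itself was not checked. In knockout cones the log2 ratio of superior over inferior was -0.04 for Opn1sw, against -2.09 in 2m controls. It was 0.09 for Kcne2 (control -1.42), 0.37 for Cxx1c (control -2.04), 0.25 for Cabp5 (control -2.56) and 0.64 for En2 (control -4.35). Syndig1l (-6.33, control -4.86), Nr2f2 (4.34, control 4.52), Samd7 (2.82, control 5.46), Smug1 (2.71, control 2.97) and Kpna2 (3.12, control 1.54) were on the same side in both. Opn1mw kept its side as well (1.62, control 1.49), but at a far lower level. Its knockout means were 6.63 CPM (superior) and 1.47 CPM (inferior), against 9599 and 3414 CPM in 2m controls. Of the 145 superior and 39 inferior genes found in most cells, 17 and 9 were 2-fold in the same direction in the knockout, where 3.56% and 3.23% of such genes were. In the opposite direction 8 and 5 were, where 3.23% and 3.56% of such genes were. Of the 618 and 213 size-rule genes, 78 and 31 had the same direction at 2-fold and 82 and 33 the opposite one. Of all genes 14.3% were 2-fold higher in superior and 14% in inferior knockout cones. Of the knockout libraries 17 of 50 superior and 10 of 48 inferior ones had under 2300 genes as well, and they were kept. With 1 knockout collection the difference between genotypes was not tested.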

How the data were processed

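RNA values came from single cells, each with a SMART-Seq v4 and ThruPLEX library, per the labels' protocols. Per the submitters' processing notes, bcl2fastq 2, STAR 2.7.3a and MACS2 2.2.7.1 were used on GRCm38/mm10. For the counting tool, its strand setting and the annotation: not given in the sources used here. The authors deposited CPM for 10390 genes in 430 libraries. A pair of P60 superior libraries (Pearson r 0.996) was counted as 1 cell, and cell numbers pair nothing. All values above 0 (100%) were whole multiples of 1 read within 0.1 reads, so whole reads were recovered for the count tests. The authors' region lists were used by position only. The lists carry a deposited p-value column, which was not used.

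A zone's value is the mean CPM over its cells, and a ratio is log2 of (mean CPM + 1), superior over inferior. With 1 sample a zone there is no test at 2m, and the size rule (at least 2-fold, a mean of 10 CPM, over 1 CPM in 25% of cells) describes it. Limma 3.58.1 in R 4.3.3 tested P21, P60 and 2m, with edgeR 4.0.16 and DESeq2 1.42.0 on recovered reads as alternatives. The limma step was tested on simulated data. Gene positions came from RefSeq GRCm38.p6 (10149 genes matched by ID), and regions were counted within 50 kb of a gene. Intervals are exact at 95%, and a count of 0 allows 3 cells of the total.

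Named are Opn1sw, Opn1mw, Syndig1l, Thrb, list members meeting the size rule, the 12 largest ratios each way that held at P60, the 4 largest that did not, and limma calls. Other genes named were chosen after their values were seen. The members, lists and tests were chosen with earlier results of these data known. The labels do not say whether replicate cells came from separate animals. Y-linked genes were not analysed here, so the planned split by them was replaced by cells with and without Xist. Libraries under 2300 genes were kept unless stated. Some genes of the lists are not reported here.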

Additional observations from a re-analysis of the deposited data

Results flagged for a closer look

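Some genes that met the size rule in 2m control cones were at least 2-fold in the opposite direction in another collection. In each case the difference between the collections was not tested. In knockout cones the log2 ratio of superior over inferior was -2.92 for Pde6a, against 4.58 in 2m controls. It was -2.29 for Prrt2 (2m control 3.41), -1.23 for Dennd1a (3.38), -2.45 for Usp54 (3.18) and -3.21 for Crkl (3.75), genes higher in superior control cones. It was 1.33 for Glul (2m control -1.39), 3.18 for Nefl (-1.47), 1.22 for Rnf130 (-2.41) and 2.54 for Dcaf17 (-2.41), genes higher in inferior control cones. Between the 2 adult control collections, Pde6a had 4.58 at 2m and -1.87 at P60, and Ctps2 5.30 at 2m and -1.90 at P60. Most of these genes were found in a minority of cells: Pde6a was above 1 CPM in 25 of 53 superior and 12 of 50 inferior 2m control cones, and its highest superior cell held 29% of the zone's sum.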

How the results depend on the processing

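Counts by the size rule (618 superior and 213 inferior genes) stayed within 1.5 times with summed reads, a pseudocount of 5 CPM, rescaling without the opsins, no filter on the mean, centring on the median of all genes, and without the 19 libraries of few genes (658 and 286). They were 1590 and 66 with log values averaged over cells, 1446 and 772 without the detection filter, 95 and 23 at 4-fold, 145 and 39 with detection in 50% of cells, 379 and 87 without each gene's highest cell, 1054 and 874 in cells with Xist, and 1031 and 357 in cells without. They were 955 and 760 in the early libraries, 1356 and 393 in the later ones, and 1620 and 772 in the later ones without those of few genes. Of 853 ratios of the 78 named genes recomputed, 835 kept their sign. Thrb (-0.22) and Glul (0.0376) reversed in cells with Xist, Glul (0.486) in the early libraries, and Pias3 (-0.49) and Snhg17 (1.14) in the later ones without those of few genes. The other 13 changes of sign were of Ephb2 (0.05) and Guca1b (0.22) with averaged log values, and of Cngb3, Cnga3, Pde6c, Pde6h and Gnat2 in subsets of cells (-0.36 to 0.96). The cause was not tested.

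Limma calls (3 superior and 1 inferior) were 24 and 12 with averaged log values, 4 and 5 with a pseudocount of 5 CPM, 0 and 0 without the filter (754 at p under 0.05) and 0 and 0 over all 5 control collections (710). They were 0 and 0 with edgeR (462) and 430 and 346 with DESeq2. They were 1 and 0 with the 2m means without the libraries of few genes (743). Without 1 collection each direction ran from 0 to 9 genes, with 0 left without P21 (545 at p under 0.05) or P60 (594) and 9 each way without 2m. No paired analysis of cells was possible because cell numbers only name cells. Without the replicate block by collection limma called 3 and 2.

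With 1 sample a zone and cells of unknown animals, 2m differences cannot be told apart from differences between animals or dissections.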
